A study of Mus musculus with 16 samples.

Results

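Potassium channels set the resting potential of a neuron, shape each action potential and limit how fast it can fire again. Their genes carry symbols that start with Kcn. The proteins fall into voltage-gated (Kv), calcium- or sodium-activated, inwardly rectifying (Kir) and two-pore leak (K2P) channels, joined by auxiliary subunits that alter gating or traffic to the membrane. In the hippocampus Kv4 channels carry the dendritic A-type current, Kv7 channels the M-current that holds back repetitive firing, and small-conductance (SK) and big-conductance (BK) calcium-activated channels the afterhyperpolarisation. Members were taken as every probe set with a single gene symbol beginning with Kcn, and where a gene had several, the one with the highest mean signal stood for it. That gave 92 genes, from 95 probe sets, of 19935 genes measured by 21780 single-symbol probe sets.

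The values came from Mouse Gene 1.0 ST arrays hybridised with hippocampal RNA of female mice, 3 months old, from an F2 background of C57BL/6J and DBA. The 4 groups crossed genotype with housing. Wild-type littermates and mice heterozygous for a deficiency of Crebbp, the gene of the transcriptional coactivator CBP (cbp+/-), lived either in a standard cage (5 arrays per genotype) or for 2 weeks in an enriched environment with running wheels, tubing and toys that were rearranged regularly (3 arrays per genotype). Each of the 16 arrays carried the pooled RNA of 4 animals, so the spread between arrays is a spread between pools. Whether fewer cells of a type or less RNA per cell lies behind a difference in such tissue cannot be told apart. All levels below are log2 of the deposited signal, and signals of different probe sets do not rank genes by abundance. Differences are log2 differences between group means with their standard error (SE) from limma, a linear model with a moderated variance, and adjusted p is Benjamini-Hochberg over all 21780 probe sets.

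The 92 genes comprised 8 Kv1 genes, 1 Kv2 gene (Kcnb2), 3 Kv3, 3 Kv4, 3 Kv7, 7 of the EAG/ERG/ELK family and 10 electrically silent Kv subunits. Further members were 3 Kv beta subunits, 4 KChIPs (calcium sensors bound to Kv4), 5 Kcne subunits, 4 genes grouped as BK and Slack, 4 BK beta subunits and 4 SK-type channels. The others were 15 Kir, 14 K2P, the channel regulator Kcnrg and 3 antisense RNAs (Kcnd3os, Kcnmb4os1 and Kcnmb4os2). The BK and Slack group holds Kcnma1, Kcnt1, Kcnt2 and also Kcnu1, whose channel is Slo3. The mean signal of 52 members lay above 6.59, the median of all probe sets, and that of 40 lay below it. Members of the brighter part are called bright and the rest dim. All 5 Kcne subunits were dim, while all 3 Kv3 and all 3 Kv beta genes were bright. Of the 3 genes with a second probe set, Kcna2 gave -0.21 and -0.20 and Kcnh8 0.06 and 0.13 for enrichment in wild type, so their probe sets shared a direction there, and Kcnma1 is described below.

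**Figure D1:**
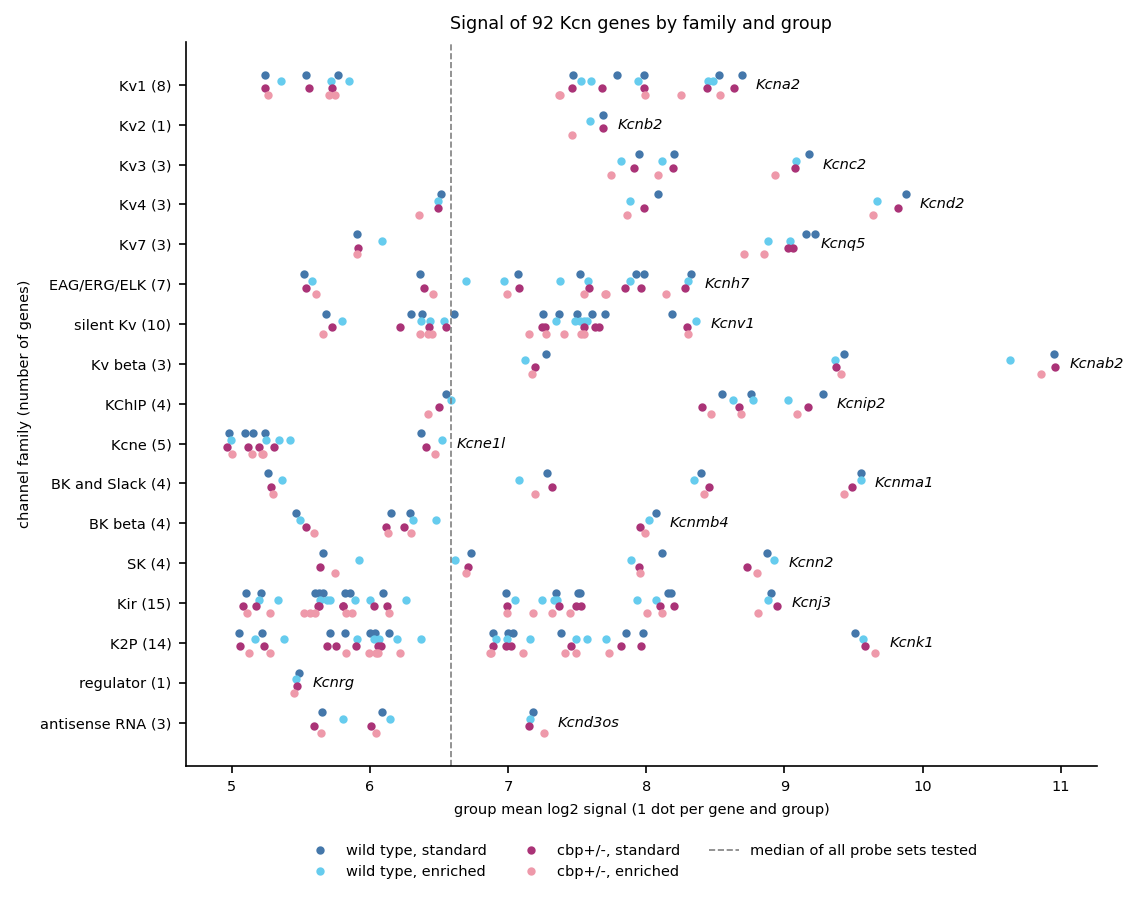
Group mean log2 signal (x axis) of each of the 92 Kcn genes, by channel family (y axis, with the number of genes); each dot is 1 gene in 1 group and colours give the 4 groups. The name marks the member with the highest signal of each family, and the dashed line is the median of all probe sets tested, 6.59. All dots of the 5 Kcne genes lie left of that line, and all dots of the 3 Kv3 and 3 Kv beta genes lie right of it.

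Hierarchical clustering on all 28815 probe sets put the 16 arrays in 4 sets, of which set 1 held replicates 1 and 2 of every group, set 2 the standard-cage replicates 3, set 3 the standard-cage replicates 4, and set 4 the standard-cage replicates 5 with the enrichment replicates 3. What made the sets is not given in the labels. Enrichment arrays lie only in sets 1 and 4, so housing is partly confounded with array set, while genotype is balanced across sets. Crebbp itself was not lower in the arrays labelled cbp+/-. It stood at 9.57 ± 0.22 against 9.43 ± 0.18 in standard cages (SD, n = 5) and 9.36 ± 0.025 against 9.26 ± 0.082 after enrichment (SD, n = 3), higher in 8 of 8 same-numbered pairs. The labels do not say which part of the gene the allele alters, so this probe set does not settle the genotypes, and cbp+/- below means the arrays labelled so. Markers of pyramidal neurons (7 of 8 listed genes measured) were present throughout, with summed signals from 6249 to 10241.

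No potassium channel gene passed an adjusted p of 0.05 by limma, in any of 7 comparisons: enrichment in each genotype, genotype in each housing, the interaction of both, and each factor averaged over the other. The same count was 0 for all 21780 probe sets (0% called in each). At an unadjusted p under 0.05 and without a claim for any one gene, 15 of 92 members (16.3%) passed for enrichment in wild type, beside 18.1% of all genes. For enrichment in cbp+/-, 4 members (4.35%) passed, beside 2.75% of all genes. For enrichment averaged over genotype the count was 19 members (20.7%), beside 19.3%. For genotype it was 1 member (1.09%) in standard cages beside 1.01%, 2 members (2.17%) after enrichment beside 5.43%, and 1 member (1.09%) averaged over housing beside 4.04%. None passed for the interaction, beside 2.76% of all genes. These shares are close to or below those of all genes, apart from the small count for enrichment in cbp+/-.

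Among the Kv4 channels, the signal of Kcnd2, which encodes Kv4.2, the main dendritic A-type channel of pyramidal cells, was lower after enrichment in both genotypes. The standard-cage wild-type pools read 9.90, 9.83, 9.93, 9.95 and 9.78, and the enriched ones 9.62, 9.77 and 9.62. All 3 enriched wild-type pools lay below all 5 standard-cage pools. In cbp+/- the standard-cage pools read 9.79, 9.83, 10.01, 9.87 and 9.62 and the enriched pools 9.54, 9.74 and 9.63, so the groups overlapped through replicate 5. The difference was -0.21 in wild type (SE 0.077, adjusted p = 0.195 by limma) and -0.18 in cbp+/- (SE 0.077, adjusted p = 0.999). Averaged over genotype it was -0.20 (SE 0.054, adjusted p = 0.142 by limma), the smallest unadjusted p of any member in that comparison. Housing accounted for 50.3% of the variance of Kcnd2 over the 16 arrays, against a median of 10.8% over members and 9.43% over all genes. For the member with the smallest housing p, a share above the median restates that contrast and adds no support. Array set, which is partly confounded with housing, accounted for 57.8%.

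Within array set 1 alone, Kcnd2 differed by -0.17 in wild type and -0.17 in cbp+/- (2 arrays per group). Within set 4, with 1 array per group, it differed by -0.16 in wild type and 0.02 in cbp+/-. In wild type the shared sign follows from the separation of the pools.

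Kcnd3, which encodes Kv4.3, the A-type channel found mainly in interneurons and granule cells, gave 8.02, 7.95, 8.09, 8.17 and 8.20 in standard-cage wild-type pools and 7.78, 7.92 and 7.95 after enrichment. The highest enriched pool exceeded the lowest standard-cage pool only at the third decimal, so the groups met without a gap. Its difference was -0.20 in wild type (SE 0.084, adjusted p = 0.233 by limma). In cbp+/- the standard-cage pools split, with 3 of 5 at 7.87 and 2 at 8.16, and the enriched pools read 7.85, 7.82 and 7.91. Kcnd1, the third Kv4 gene, was close to the array median and differed by -0.03 with enrichment in wild type. Of the 4 KChIP genes, 3 were higher and 1 lower with enrichment in wild type, with a median difference of 0.03, and Kcnip2 was the lower one at -0.25.

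Kcnb2, which encodes Kv2.2, a delayed rectifier, had the smallest p for enrichment in cbp+/-. Standard-cage cbp+/- pools read 7.78, 7.74, 7.69, 7.65 and 7.56 and enriched ones 7.47, 7.57 and 7.35. Only the highest enriched pool reached into the standard-cage range. The difference was -0.22 (SE 0.078, adjusted p = 0.999 by limma), and in wild type it was -0.09, with standard-cage pools from 7.54 to 7.86 and enriched pools from 7.55 to 7.62. All 3 Kv3 genes, whose channels let fast-spiking interneurons fire at high rates, were lower after enrichment in both genotypes, with medians of -0.09 in wild type and -0.15 in cbp+/-. For the Kv3 gene Kcnc2 the wild-type pools read 9.30, 9.23, 9.26, 9.12 and 8.97 in standard cages and 9.05, 9.05 and 9.16 after enrichment, which overlap.

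Across the 35 voltage-gated genes, 21 were lower with enrichment in wild type (median -0.08) and 26 in cbp+/- (median -0.10). Markers of pyramidal neurons were also lower, 6 of 7 in wild type (median -0.19) and 6 of 7 in cbp+/- (median -0.15). They were not alone in wild type: 6 of 7 oligodendrocyte (median -0.18), 7 of 8 astrocyte (-0.09) and 6 of 8 interneuron markers (-0.07) were lower. In cbp+/- the medians of those lists were -0.03, -0.06 and 0.02. The choroid plexus and blood lists were higher in wild type (medians 0.09 and 0.25). Of all bright genes, 67.9% were lower in wild type. The part of any cell type in the channel values was not tested. Unlike most voltage-gated genes, the EAG/ERG/ELK gene Kcnh4, which encodes an ELK channel of forebrain neurons, was higher with enrichment in wild type. Kcnh4 is a dim member, with a mean signal of 6.45, and 37 of 40 dim members were higher in that comparison. Its pools read 6.23, 6.42, 6.50, 6.48 and 6.16 in standard cages and 6.82, 6.77 and 6.50 after enrichment, the lowest enriched pool lying above the highest standard-cage one by less than the rounding shown. That difference of 0.34 (SE 0.13, adjusted p = 0.205 by limma) was the largest positive difference of any member in wild type. In cbp+/- enriched pools of Kcnh4 ranged from 6.12 to 6.68, on both sides of the standard-cage pools at 6.18 to 6.53.

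**Figure D2:**
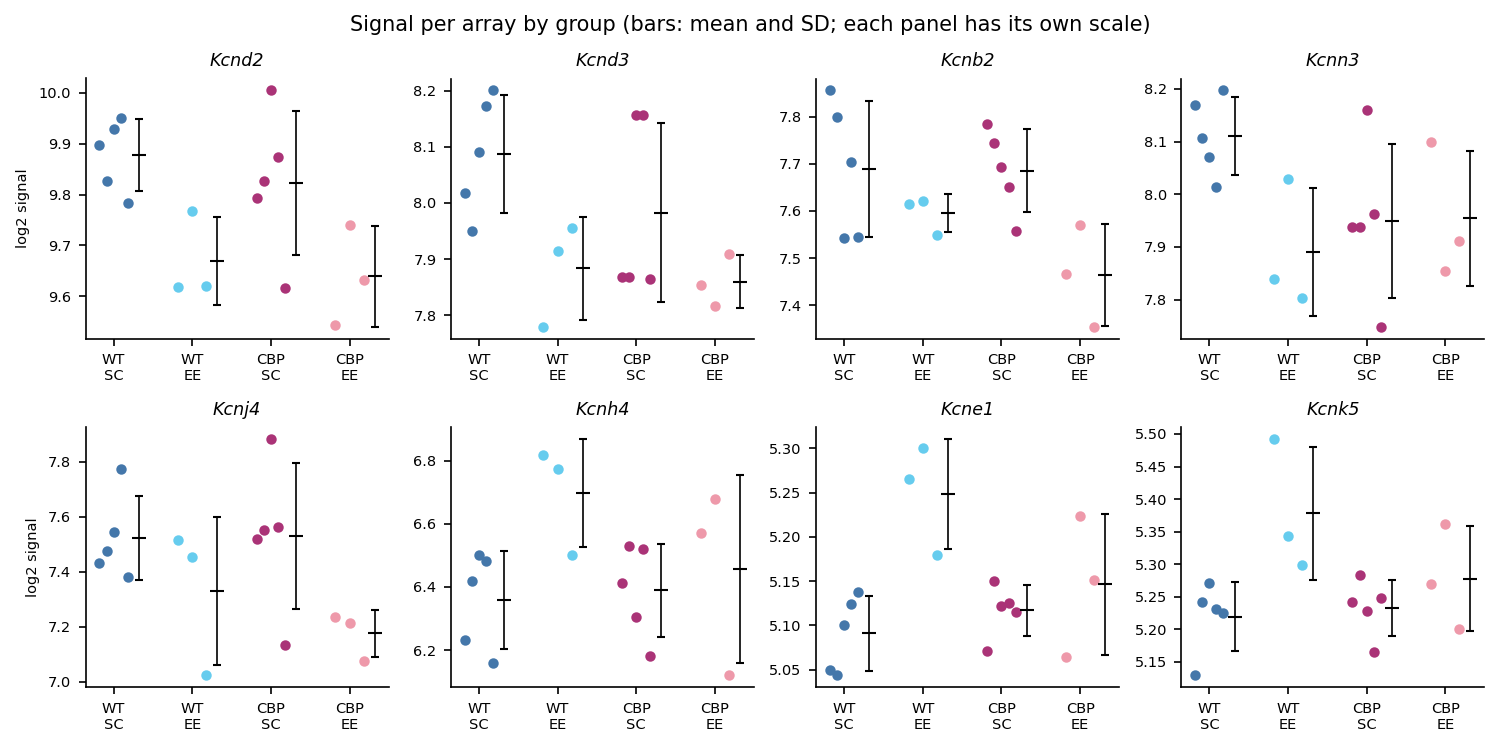
Log2 signal (y axis, its own scale in each panel) of 8 channel genes on every array, by group (x axis; WT wild type, CBP cbp+/-, SC standard cage, EE enriched); dots are arrays and bars the mean and SD of a group. All 3 enriched wild-type pools lie below the standard-cage pools for Kcnd2 and above them for Kcnh4, Kcne1 and Kcnk5, while in cbp+/- every one of these genes overlaps between housings.

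Among calcium-activated channels, Kcnn3 (SK3) read 8.17, 8.11, 8.07, 8.01 and 8.20 in standard-cage wild-type pools and 7.84, 8.03 and 7.80 in enriched ones. The groups touched, since the enriched pool at 8.03 lay above the standard-cage pool at 8.01. The difference was -0.22 (SE 0.085, adjusted p = 0.209 by limma). In cbp+/- the standard-cage mean was 7.95 ± 0.15 (SD, n = 5) and the enriched mean 7.95 ± 0.13 (SD, n = 3), and the interaction was 0.23 (SE 0.12, adjusted p = 1.00 by limma). Kcnn3 also had the smallest p for genotype in standard cages in the fit without pairs, at -0.16 (SE 0.074, adjusted p = 1.00 by limma), with 4 of 5 cbp+/- pools below every wild-type pool. With same-numbered pairs as blocks, Kcnq3 had the smallest p there. Both of these contrasts rest on the same standard-cage arrays as the housing contrasts.

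Kcnn4, the intermediate-conductance channel known mainly from blood and immune cells and a dim member here, read 5.73, 5.66, 5.69, 5.52 and 5.69 in standard-cage wild-type pools and 6.02, 6.05 and 5.70 after enrichment. The third enriched pool lay inside the standard-cage range. Its difference was 0.26 (SE 0.083, adjusted p = 0.155 by limma). Blood markers (3 of 8 measured) were also higher in enriched wild-type pools, with summed signals of 169 to 196 against 138 to 164. The 3 measured, Alas2, Slc4a1 and Epb42, are dim as well, with mean signals of 5.97, 5.83 and 5.47. Of all dim genes, only 14.3% were lower with enrichment in wild type, with a median of 0.08, beside a median of 0.25 for the blood list. The part of blood in the Kcnn4 value was not tested. By its brighter probe set Kcnma1, the pore of the BK channel, had equal means in both housings in wild type. They were 9.55 ± 0.093 in standard cages (SD, n = 5) and 9.55 ± 0.031 after enrichment (SD, n = 3). Its other probe set differed by -0.47 there (SE 0.48, adjusted p = 0.639 by limma).

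The auxiliary Kcne subunits, small single-pass proteins that slow or alter Kv channels, were all 5 higher with enrichment in wild type (median 0.15), and 4 of 5 in cbp+/- (median 0.03). Kcne1 read 5.05, 5.04, 5.10, 5.12 and 5.14 in standard-cage wild-type pools and 5.27, 5.30 and 5.18 after enrichment, with no overlap. Its difference of 0.16 (SE 0.045, adjusted p = 0.137 by limma) had the smallest p of any member for enrichment in wild type. Kcne4 read 5.12, 5.16, 5.17, 5.21 and 5.11 in standard cages and 5.48, 5.39 and 5.39 after enrichment, again without overlap, a difference of 0.27 (SE 0.093, adjusted p = 0.181 by limma). In cbp+/-, Kcne4 spread from 5.08 to 5.45 in standard cages and from 5.00 to 5.45 after enrichment, and its housing groups covered each other. Both genes are dim, and dim probe sets as a whole were higher in the enriched wild-type arrays.

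Of the 14 two-pore leak channels, 11 were higher with enrichment in wild type (median 0.11) and 10 in cbp+/- (median 0.05). Only 7 of the 14 are bright, and Kcnk5 and Kcnk16, described next, are dim. Of all dim genes, 14.3% were lower with enrichment in wild type and 30.9% in cbp+/-. Kcnk5, an alkali-sensitive leak channel, read 5.13, 5.24, 5.27, 5.23 and 5.23 in standard-cage wild-type pools and 5.49, 5.34 and 5.30 in enriched ones, which did not overlap. The difference was 0.16 (SE 0.053, adjusted p = 0.171 by limma). Kcnk16, a leak channel known from the pancreas, differed by 0.25 in wild type (SE 0.11, adjusted p = 0.261 by limma) and by 0.29 in cbp+/- (SE 0.11, adjusted p = 0.999). Kcnk9 (TASK-3), an acid-sensitive leak channel of neurons and a bright member, went the other way, at -0.28 in wild type and -0.41 in cbp+/- (SE 0.21 for both, adjusted p = 0.999 in cbp+/- by limma). Its standard-cage cbp+/- pools ran from 7.26 to 8.34 and its enriched pools from 7.20 to 7.56. Within array sets 1 and 4 the Kcnk9 differences were smaller, at -0.13 and -0.12 in wild type and -0.26 and -0.06 in cbp+/-.

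Inward rectifiers split as well, with 9 of 15 higher with enrichment in wild type (median 0.04) and 5 of 15 in cbp+/- (median -0.05). Kcnj4, a strong inward rectifier of forebrain neurons, read 7.52, 7.55, 7.88, 7.56 and 7.14 in standard-cage cbp+/- pools and 7.24, 7.21 and 7.08 after enrichment. Apart from replicate 5, every standard-cage pool lay above every enriched pool. Its difference was -0.35 (SE 0.14, adjusted p = 0.999 by limma). The G-protein-gated partners Kcnj3 and Kcnj6 (GIRK1 and GIRK2) had group means from 8.81 to 8.95 and from 7.35 to 7.50. Kcnj10 (Kir4.1), the potassium-buffering channel of astrocytes, was 8.17 ± 0.27 in standard-cage wild-type pools (SD, n = 5) and 8.07 ± 0.14 after enrichment (SD, n = 3).

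In total, 5 members stood above all standard-cage pools in all 3 enriched wild-type pools (Kcne1, Kcne4, Kcnh4, Kcnj5 and Kcnk5, 5.43% of members), beside 9.48% of all genes. A further 2 stood below (Kcnd2 and the Kv beta subunit gene Kcnab3, named here after its values were seen, 2.17%), beside 1.9%. In cbp+/- no member separated upward, beside 1.71% of all genes, and none downward, beside 1.18%. The counts of separated members thus did not exceed those of the array as a whole in either genotype, apart from the small count downward in wild type.

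Because enriched arrays fall in sets 1 and 4 alone, the same genes were read within each. For the separated genes the shared sign in wild type follows from the separation itself, so only sizes are given. Kcne4 differed by 0.29 in set 1 and 0.28 in set 4, and Kcnh4 by 0.47 and 0.34. Kcne1 differed by 0.24 and 0.04, and Kcnk5 by 0.23 and 0.07, so both were larger in set 1. Among those that overlapped, Kcnn3 gave -0.20 and -0.39 and Kcnd3 -0.14 and -0.25, while Kcnn4 gave 0.34 and 0.01. In cbp+/-, Kcnb2 differed by -0.25 in set 1 and -0.20 in set 4, Kcnk16 by 0.28 and 0.29, and Kcnj4 by -0.31 and -0.06. In wild type Kcnk16 changed sign between the sets, at 0.42 and -0.07. Single-array values in set 4 have no replicate.

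Over all arrays, the sign of a housing difference followed the brightness of the probe set, in members as in all genes. Among bright members, 38 of 52 (73.1%) were lower with enrichment in wild type, with a median of -0.09, beside 67.9% of all bright genes and a median of -0.07. Among dim members, 37 of 40 were higher, with a median of 0.12, beside a median of 0.08 for all dim genes. In cbp+/-, 39 of 52 bright members were lower (75%, median -0.09), beside 58.3% of all bright genes (median -0.03), and 29 of 40 dim members were higher (median 0.03, the same as all dim genes). The 2 genotypes used separate arrays, but same-numbered arrays of a housing share an array set and deviated together, so their housing differences are not independent. Of bright members, 33 of 52 (63.5%) were lower in both, beside 49.4% of all bright genes. For dim members, 29 of 40 (72.5%) were higher in both, beside 63.5% of all dim genes. The interquartile range of log2 signal was narrower on the 3 enriched wild-type arrays, 2.30 to 2.43, than on any standard-cage wild-type array, 2.51 to 2.59. Enriched cbp+/- arrays ranged from 2.42 to 2.55 and standard-cage cbp+/- arrays from 2.51 to 2.65. The part of this narrower range in the directions above was not tested.

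**Figure D3:**
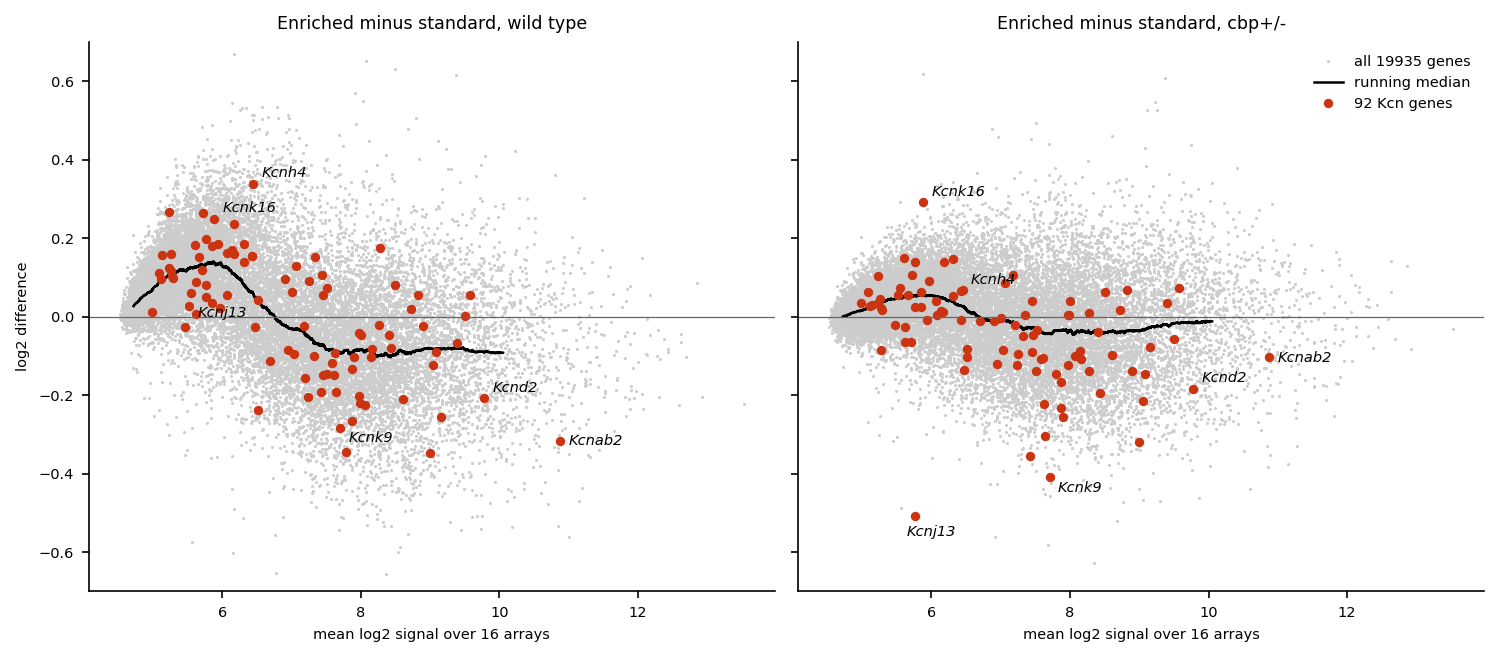
Log2 difference, enriched minus standard cage (y axis), against mean log2 signal over the 16 arrays (x axis) in wild type (left) and cbp+/- (right); grey dots are all 19935 genes, the black line their running median and red dots the 92 Kcn genes. The line lies above 0 at low signal and below 0 at high signal, farther from 0 in wild type, and most red dots lie on the same side of 0 as the line; 9 genes in wild type and 2 in cbp+/- fall beyond the axis limit of 0.7.

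Within array set 1, where both housings have 2 arrays per genotype, 33 of 52 bright members were lower in wild type (63.5%, median -0.07), beside 64.8% of all bright genes, and 31 of 52 in cbp+/- (59.6%, median -0.06), beside 53.5%. Within array set 4, with 1 array per group, 33 of 52 bright members were lower in wild type, beside 54.1% of all bright genes, and 22 of 52 in cbp+/- (median 0.02), beside 52.5%. Of the 40 dim members, 4 were lower in wild type within set 1, beside 14.9% of all dim genes, and 9 in cbp+/-, beside 26.4%. Within set 4, 12 of 40 were lower in wild type, beside 34.6%, and 21 of 40 in cbp+/-, beside 53.9%. The relation of sign to brightness was therefore not seen in cbp+/- within set 4, in members or in all genes. Fitted on array set 1 alone, limma called 22 members (23.9%) at an adjusted p under 0.05 for enrichment in wild type, beside 29.9% of all probe sets, and 27 (29.3%) averaged over genotype, beside 25.1%. That fit rests on 2 pools per group. With arrays weighted by their quality, the same threshold called 19 members (20.7%) in wild type beside 24.1% of all probe sets, 9 in cbp+/- beside 4.77%, and 29 averaged over genotype beside 28.3%. These calls rest largely on single arrays, since replicate 2 of enriched wild type had a weight of 6.68 against 0.458 and 0.261 for the other 2, and replicate 1 of enriched cbp+/- 8.63 against 0.984 and 0.409. Weighting also called 13 members for genotype after enrichment beside 11.4%, and 1, Kcne1, for the interaction beside 1.97%. With the replicate number as a block, 2 members passed for enrichment averaged over genotype, beside 1.5% of all probe sets: Kcnb2 at -0.21 (adjusted p = 0.0419 by limma) and Kcnc2 at -0.23 (adjusted p = 0.0434). Replicate numbers are not known to pair the housings, and this block joins arrays of sets 2 and 4 under replicate 3. Within set 4 in wild type, Kcnb2 differed by 0.01 and Kcnc2 by 0.19, against the called direction. In cbp+/- they differed there by -0.20 and 0.02, so only Kcnb2 shared it. Within set 1 the values were -0.21 and -0.21 in wild type and -0.25 and -0.19 in cbp+/-.

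Averaged over housing, 69 of 92 members (75%) were lower in cbp+/- with a median of -0.05, beside 57.1% of all genes with a median of -0.01. Among bright members 34 of 52 (65.4%) were lower, beside 39.8% of all bright genes. For dim members it was 35 of 40 (87.5%), beside 74.1%. By class, 26 of 35 voltage-gated channels, 14 of 16 auxiliary subunits, 11 of 14 two-pore channels and 10 of 15 inward rectifiers were lower. So were 5 of 8 genes classed as calcium- or sodium-activated, a class that here includes Kcnu1. No member passed the adjusted threshold.

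Same-numbered wild-type and cbp+/- arrays of 1 housing deviated from their group means together, with correlations from 0.26 to 0.77 over all probe sets in 8 pairs, so each pair was also compared directly. No member was higher in cbp+/- in 7 or 8 of the 8 pairs, beside 5.27% of all genes. By contrast 12 members (13%) were lower in 7 or 8 of 8, beside 5.22% of all genes. They were Kcnq3, Kcnq5 and Kcna6 in 8 of 8 pairs, and Kcna1, Kcnc2, Kcnh1, Kcns2, Kcnip4, Kcnma1, Kcnn2, Kcnn4 and Kcnj13 in 7 of 8. The list thus holds 2 M-current genes, 2 Kv1 genes and a silent subunit, with the BK pore and 2 channels of the SK group.

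Kcnq3 encodes a Kv7 subunit of the M-channel. Its pools read 9.21, 9.10, 9.54, 9.46 and 8.82 in standard-cage wild type and 8.93, 8.92, 9.38, 9.22 and 8.66 in standard-cage cbp+/-. After enrichment they read 9.0, 9.03 and 8.60 in wild type and 8.75, 8.87 and 8.50 in cbp+/-. Pools of 1 genotype spanned far more than the gap between genotypes, and the groups overlapped, but the cbp+/- pool was lower in each pair. The pair differences were -0.28, -0.18, -0.16, -0.23 and -0.16 in standard cages and -0.25, -0.16 and -0.11 after enrichment. With pairs as blocks the difference was -0.19 (SE 0.031, adjusted p = 0.189 by limma), against an SE of 0.13 without the blocks. It did not pass the threshold in either fit.

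Kcnq5, which encodes another M-current subunit of the hippocampus, read 9.17, 9.19, 9.20, 9.38 and 8.86 in standard-cage wild type and 9.05, 9.04, 9.20, 9.29 and 8.76 in cbp+/-. Enriched pools read 9.06, 9.0 and 9.05 in wild type and 9.0, 8.87 and 8.69 in cbp+/-, and the genotypes overlapped in standard cages. After enrichment the highest cbp+/- pool lay below the lowest wild-type pool by less than the rounding shown. With pairs as blocks the difference was -0.14 (SE 0.039, adjusted p = 0.266 by limma). Its single pairs ranged from -0.36 to -0.003, so 1 pair was close to equal. Kcna6, a Kv1 subunit of axons named here for its count of pairs, differed by -0.16 (SE 0.036, adjusted p = 0.218 by limma), with pairs from -0.28 to -0.02. At an unadjusted p under 0.05, the paired fit averaged over housing held 12 members (13%), beside 12% of all genes. In single housings it held 3 members in standard cages beside 4.51% of all genes, and 15 members after enrichment beside 13.2%. The share of members was therefore close to the share of all genes in each.

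Kcnma1 had the smallest p for genotype without pairing, at -0.09 (SE 0.043, adjusted p = 1.00 by limma). Its pools read 9.63, 9.62, 9.54, 9.57 and 9.40 in standard-cage wild type and 9.51, 9.55, 9.46, 9.58 and 9.33 in cbp+/-. After enrichment the wild-type pools at 9.52, 9.55 and 9.58 all lay above the cbp+/- pools at 9.45, 9.46 and 9.38. The gene's other probe set gave -0.59 for the same comparison (SE 0.34, adjusted p = 1.00 by limma), so the direction was shared but its size and spread were not. Kcnmb2, a BK beta subunit that inactivates the channel, stood at -0.11 (SE 0.055), and all 3 enriched cbp+/- pools, 6.17, 6.15 and 6.06, lay below the wild-type pools at 6.33, 6.35 and 6.24. Kcns3, a silent subunit, had the smallest p for genotype after enrichment in the fit without pairs, at -0.19 (SE 0.083, adjusted p = 0.924 by limma). With pairs as blocks the smallest was that of Kcna6, at -0.22 (SE 0.056, adjusted p = 0.305 by limma). The enriched pools of Kcns3 overlapped between genotypes, at 7.52, 7.32 and 7.19 in wild type and 7.23, 7.19 and 7.03 in cbp+/-.

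**Figure D4:**
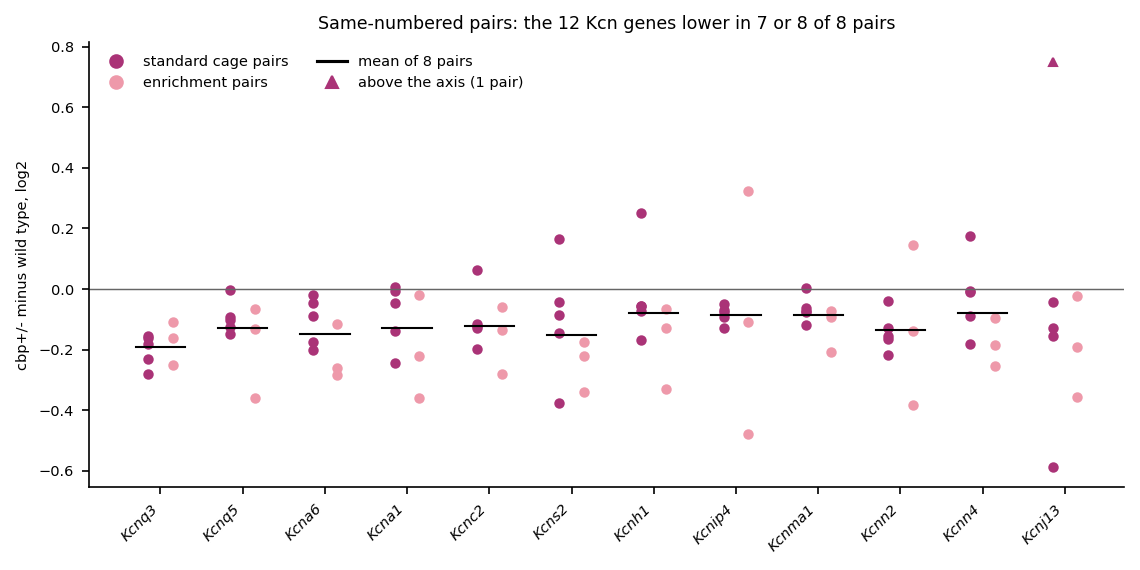
Log2 difference, cbp+/- minus wild type (y axis), in the 8 same-numbered pairs for the 12 Kcn genes lower in 7 or 8 of them (x axis); dark dots are standard-cage pairs, light dots enrichment pairs, and bars the mean of the 8 pairs (none for Kcnj13). All 8 dots of Kcnq3 lie below -0.10, and 1 standard-cage pair of Kcnj13, at 2.76, lies above the axis.

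The array sets were formed from these same values and have 4 levels against 2 for housing and genotype, so a large share of the variance between sets is built in. Set membership held a median of 39.5% of a member's variance over the 16 arrays, housing 10.8% and genotype 2.42%, beside 38.4%, 9.43% and 2.46% for all genes. These shares overlap, since housing is not balanced over sets. The share between sets reached 94.7% for Kcnab1, a Kv beta subunit with a role in memory, 90.9% for Kcnip2, 90.7% for the silent subunit gene Kcng1 and 90.6% for the Kv3 gene Kcnc4. Kcnip2 averaged 9.67 in set 2, and 9.17, 9.15 and 8.89 in sets 1, 3 and 4. Kcnq3 followed the same order at its ends, with 9.46 in set 2 and 8.64 in set 4. The summed signal of pyramidal neuron markers was 10004 and 10241 on the arrays of set 2 and 6249 to 6686 on those of set 4, and the part of cell composition in these members was not tested. Kcnk2 (TREK-1), a mechanosensitive leak channel, averaged 7.39 in set 4 and 8.13 in set 2.

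Kcnj13 (Kir7.1) is the inward rectifier of choroid plexus epithelium, and 1 array stood apart in its signal. Replicate 3 of the standard-cage cbp+/- group read 8.09, while the other 4 pools of that group read 5.78, 5.43, 5.30 and 5.55. Wild-type pools in standard cages read 6.37, 5.59, 5.33, 5.34 and 5.68. Enriched pools lay between 5.29 and 5.79 in both genotypes. Transthyretin (Ttr), the main secreted product of that epithelium, was also highest on that array, at 12.69, and second highest at 10.90 on the wild-type array whose Kcnj13 was second highest. Over the choroid plexus list, of which 8 of 10 genes were measured, the summed signal was 7376 on that array and 507 to 2322 on the 15 others. Kcne2, a subunit also found in choroid plexus, was highest there too, at 5.59 against 5.15 to 5.42 elsewhere. The part of choroid plexus tissue in these values was not tested. The other 7 genotype differences of Kcnj13 ran from -0.59 to -0.02. Their shared sign follows from its listing as lower in 7 of 8 pairs and adds no support. The pair at -0.59 holds the wild-type array with the second highest Ttr.

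**Figure D5:**
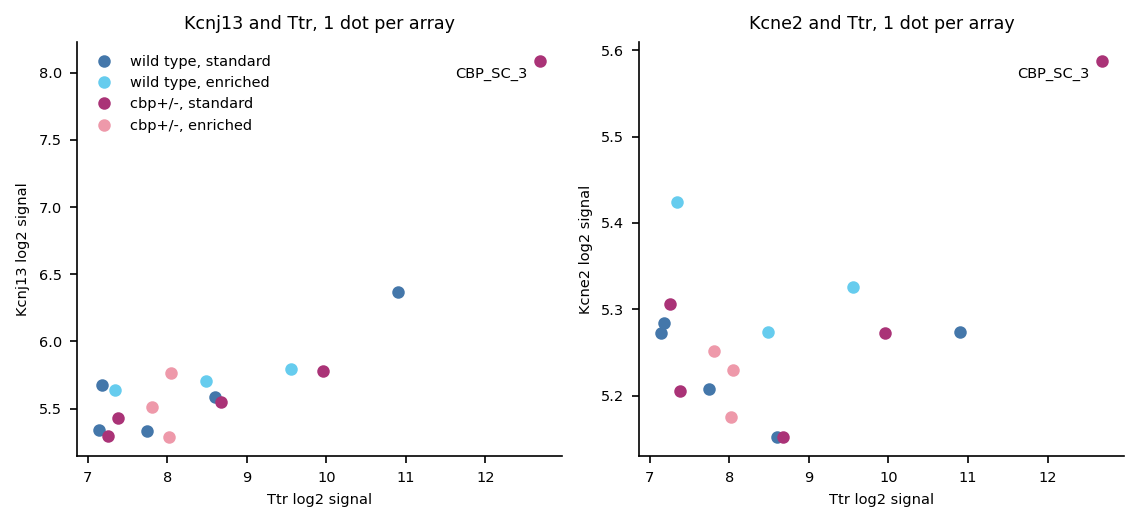
Log2 signal of Kcnj13 (left) and Kcne2 (right) on the y axis against that of Ttr on the x axis, 1 dot per array and colours for the 4 groups. The array CBP_SC_3, replicate 3 of the standard-cage cbp+/- group, stands alone at a Ttr of 12.69, a Kcnj13 of 8.09 and a Kcne2 of 5.59.

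CBP is recruited by the factor CREB to cyclic AMP response elements, so the promoter windows of members were searched for that motif. RefSeq windows of build GRCm38.p6, each 300 bases long with 250 before and 50 after an annotated start, were at hand for 70 of 92 members. The full palindrome TGACGTCA was in none of the 70, beside 2.03% of all 27025 genes with a window. The half-site TGACG, read on both strands and contained in the full element, was in the windows of 17 members (24.3%), beside 23% of all genes. A match of these letters is a description and not a binding site, and no match says only that they are not in this window. The following 4 windows are shown because their genes carry results above: the pair differences of Kcna6, the separation of Kcne4 in wild type, and the 2 genes that were highest on the array with the most choroid plexus signal. All 4 hold the half-site. Some other genes with results above also held the half-site, among them Kcnj4 with a match at -167 and Kcnc4 at -64. Further genes with results above held no match, among them Kcnq5 in 2 windows and Kcnc2 in 4. None of these windows is shown. Capitals mark the half-site on either strand, and each window is written 5′ to 3′ on the gene's strand. The window of Kcna6 is chr6:126740625-126740924 on the minus strand, with a match at -6 from the start. That of Kcne4 is chr1:78816661-78816960 on the plus strand, with a match at -50. That of Kcnj13 is chr1:87394680-87394979 on the minus strand, with a match at -195. That of Kcne2 is chr16:92292139-92292438 on the plus strand, with 2 matches, the first at -222.
Kcna6: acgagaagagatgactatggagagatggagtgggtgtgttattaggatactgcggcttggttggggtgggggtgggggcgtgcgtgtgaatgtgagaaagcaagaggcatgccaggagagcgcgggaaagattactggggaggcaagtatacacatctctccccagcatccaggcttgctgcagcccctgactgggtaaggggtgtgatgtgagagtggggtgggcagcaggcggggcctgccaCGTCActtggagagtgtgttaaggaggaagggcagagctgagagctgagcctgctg
Kcne4: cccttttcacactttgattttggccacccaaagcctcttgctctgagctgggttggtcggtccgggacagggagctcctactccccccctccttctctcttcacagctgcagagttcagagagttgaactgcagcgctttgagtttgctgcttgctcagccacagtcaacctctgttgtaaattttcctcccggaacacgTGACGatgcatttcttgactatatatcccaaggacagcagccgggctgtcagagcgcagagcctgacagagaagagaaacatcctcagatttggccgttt
Kcnj13: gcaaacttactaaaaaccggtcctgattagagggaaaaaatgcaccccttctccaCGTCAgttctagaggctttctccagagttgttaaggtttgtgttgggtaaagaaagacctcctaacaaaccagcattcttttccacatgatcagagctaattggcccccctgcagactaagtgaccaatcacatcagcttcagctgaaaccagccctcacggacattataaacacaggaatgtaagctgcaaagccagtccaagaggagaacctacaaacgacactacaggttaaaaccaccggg
Kcne2: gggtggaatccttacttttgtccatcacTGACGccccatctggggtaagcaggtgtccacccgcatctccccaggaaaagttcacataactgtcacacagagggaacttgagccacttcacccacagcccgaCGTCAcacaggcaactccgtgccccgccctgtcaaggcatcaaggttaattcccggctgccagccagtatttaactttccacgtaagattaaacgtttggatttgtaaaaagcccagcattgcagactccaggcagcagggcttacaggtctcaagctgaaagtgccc

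The G+C share of the Kcna6 window was 58.3%, of Kcne4 52.7%, of Kcnj13 46% and of Kcne2 53%, beside medians of 60% over members and 52.7% over all genes. Kcna6, Kcne4 and Kcnj13 thus each held 1 match and Kcne2 held 2, in windows of different base composition.

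Genes with other symbols whose proteins join potassium channels were also counted. Of 24 listed anchors, auxiliary proteins and regulators, all 24 were measured and none was called in any of the 7 comparisons by limma. With enrichment in wild type 16 were lower and 8 higher (median -0.08), and in cbp+/- 14 were lower (median -0.06). At an unadjusted p under 0.05, 4 of 24 passed in wild type, a share below the 18.1% of all genes, and their values are given as a description. Ank3, the ankyrin that tethers Kv7 channels at the axon initial segment, differed by -0.32 (SE 0.11, adjusted p = 0.180 by limma), and Nedd4l, a ubiquitin ligase that acts on several ion channels, by -0.25 (SE 0.075, adjusted p = 0.146). The dim BK gamma subunits Lrrc26 and Lrrc38 differed by 0.29 and 0.24. For Dpp6 and Dpp10, which join Kv4 channels, the values were -0.17 and 0.11.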

How the data were processed

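The deposited intensities, not log-transformed, came from the authors' normalization by RMA, per the submitters' processing notes, while the labels' protocols name GeneSpring GX. They ranged from 22.12 to 16520.86 with none missing, and the array medians lay between 76.7 and 85.46. They were log2-transformed here without further scaling. Of 28815 probe sets, 21780 had a single gene symbol in the platform annotation, 1605 had several and were not named. The model was fitted in R 4.3.3 with limma 3.58.1 (lmFit on the 4 group means, 12 residual degrees of freedom, contrasts, eBayes), with Benjamini-Hochberg adjustment over all 21780 and a threshold of 0.05. Array sets came from Ward clustering of all probe sets.

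The naming rule took all members past an adjusted p of 0.05. Where fewer than 10 passed, it took the 10 with the smallest unadjusted p in each simple comparison and 5 in each other one. The brightest of each family and the hippocampal list were added. Not every gene it took is described: Kcna7, Kcnq1, Kcnk7 and Kcnv2, among others, are not. Of these, Kcnv2 had the smallest unadjusted p of any member for the interaction. Some genes outside the rule are described too, such as Kcna6 and Kcnab3. Members and lists were chosen with earlier results of these data known. Numbers were taken to pair the genotypes: within a housing, same-numbered arrays correlated at 0.26 to 0.77 in their deviations from the group means. In 6 of 8 pairs the array of the same number was the nearest. Such arrays also share an array set, whose part in this was not tested. Across housings the correlation ran from -0.39 to 0.37, and numbers were not taken to pair housings. In cbp+/- replicates 1 and 2 it was 0.37 and 0.29, though, much like the 0.26 and 0.31 of enrichment pairs 1 and 2. These correlations therefore do not settle the pairing. Replicates are independent pools per the labels. The number of arrays, 16, limits the precision, and no count or depth exists for arrays. The fit was tested on simulated data. Alternatives were quantile normalization, leaving out dim probe sets, replicate and array-set blocks, array weights, fits within array sets or on 2 groups, and leaving out each array. The pairing within a housing was added after the data were seen.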

Additional observations from a re-analysis of the deposited data

Results flagged for a closer look

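Among the standard-cage groups of the named members, 124 groups of 5 arrays were searched for an array far from the rest, and 7 (5.65%) had one. The cutoff flags about 1 in 20 groups of independent values. These groups share the same arrays and span the array sets, so that rate cannot tell whether the flags arose by chance. Kcnj13 read 8.09 on replicate 3 of standard-cage cbp+/-, with the next array at 5.78, on the array that also had the highest choroid plexus signal. The KChIP gene Kcnip4 was low on replicate 4 in both genotypes, at 8.44 in wild type (next 8.79) and 8.39 in cbp+/- (next 8.72). Kcnh1, an EAG channel, was high on replicate 4 of wild type, at 8.34. The silent subunit gene Kcng4 was high on replicate 3 of wild type, at 6.55. Replicate 5 of cbp+/- was low for Kcnj3, at 8.70, and for Kcnk2, at 7.48.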

How the results depend on the processing

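The absence of adjusted calls among members depended on the treatment of the arrays. Under array weights, limma called 19 members (20.7%) for enrichment in wild type, beside 24.1% of all probe sets. In cbp+/- it called 9 (9.78%) beside 4.77%, and averaged over genotype 29 (31.5%) beside 28.3%. For genotype after enrichment it called 13 (14.1%) beside 11.4%, and for the interaction 1 (1.09%) beside 1.97%. In that fit 1 array dominates each enriched group, with weights of 6.68 in wild type and 8.63 in cbp+/- against at most 0.984 for the others. Within array set 1 limma called 22 (23.9%) in wild type beside 29.9%, and 27 (29.3%) averaged over genotype beside 25.1%. The replicate block over all groups called 2 (2.17%) averaged over genotype, beside 1.5%. Leaving out each array in turn called 0 members in all comparisons. With dim probe sets left out, the median member difference with enrichment was -0.0941 in wild type, -0.0923 in cbp+/- and -0.0926 averaged, which by construction keeps the bright members. Signs turned for 3 of the differences chosen by the naming rule: Kcnd2 with enrichment in cbp+/- was 0.0167 within array set 4, and for genotype in standard cages Kcng4 was 0.0316 and Kcnk13 0.0115 within array set 1. Outside that rule, enrichment in wild type turned sign within array set 4 for, among others, Kcnk16 (-0.07), Kcna2 (0.14), Kcnc2 (0.19) and Kcnq5 (0.19). The cause of the other differences was not tested.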
